A study of Mus musculus with 12 samples.

Results

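Chromosome 3 was described in the whole-exome sequencing (WES) libraries of a pair of primary murine pancreatic ductal adenocarcinoma (PDAC) lines, 15376T and 14837T. All copy number segments and all listed genes of this chromosome were taken, and the chromosome was cut at every segment border of either line. WES-15376T held 24 of its 191 segments on chromosome 3 and WES-14837T held 19 of its 235, which gave 40 pieces. The chromosome was selected on these same log2 ratios, chosen by a copy number called above 2 along most of it in both lines, so its high level is a description and was not tested.

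The series comprised 12 samples of RNA and DNA, of which the pair of tumor WES libraries is used here. The other samples, with the wild-type tail library, were not analysed here. Both lines came from C57BL/6 mice that carried p48-Cre, ROSA_rtTA and 1 floxed p53 allele (p53 L/+), and the labels give their genotype as WT, in contrast to the knockout of Lin28b made in 15376T. The p48-Cre transgene recombines in the pancreas, where it deletes the floxed copy of p53, and ROSA_rtTA encodes a transactivator that acts when doxycycline is present. Both lines were kept in 1 µg/mL doxycycline. The study contrasted 15376T, as a line with much Lin28b, with 14837T. Lin28b is an RNA-binding protein that blocks the maturation of let-7 microRNAs. Each line was represented by 1 library and no replicate, so no difference between the lines could be tested against the spread between replicates. The SD of autosomal segments called at 2 copies served as the measure of spread, and it was 0.090 on the log2 scale in WES-15376T (n = 103) and 0.095 in WES-14837T (n = 96). This SD describes scatter along the genome and not between cultures. The methods name NimbleGen SeqCap EZ Human Exome v3.0 for the capture and the labels name Agilent SureSelect Human All Exon V5, and both are designed for human exons while the DNA is from mouse.

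Tumor cells often carry an extra copy of a whole chromosome or of an arm, gained through errors of mitosis, and single genes inside such a region are gained with their neighbours. Focal gains and losses within it can raise or remove single genes further. Mouse chromosome 3 holds genes that lie on several human chromosomes, among them Nras, Pik3ca and Sox2, the epidermal differentiation complex with its S100 genes, the tumor suppressor Fbxw7 and a number of microRNA genes.

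MicroRNAs silence messenger RNAs that pair with their seed, bases 2 to 8 of the mature strand, and microRNAs with the same seed share many targets. RefSeq annotates 51 microRNA genes within the segments of chromosome 3. Of these, 37 lay in segments gained in both lines and 14 in segments gained in WES-14837T only, a division near that of the protein-coding genes of the chromosome, of which 69.5% were gained in both and 30.2% in WES-14837T only. Mature sequences were found for 48 of the genes, and those that mark the separate states of the chromosome are printed with the seed in capitals.
mmu-let-7j: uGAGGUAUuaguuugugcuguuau
mmu-let-7i-5p: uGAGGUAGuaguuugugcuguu
mmu-miR-551b-3p: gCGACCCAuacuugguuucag
mmu-miR-15b-5p: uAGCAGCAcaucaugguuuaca
mmu-miR-16-5p: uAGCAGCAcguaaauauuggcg
mmu-miR-367-3p: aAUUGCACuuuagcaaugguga
mmu-miR-92b-3p: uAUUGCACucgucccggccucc
mmu-miR-9-5p: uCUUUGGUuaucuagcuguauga
The sequences are those of RefSeq on GRCm38.p6. let-7j is shown because Lin28b acts on let-7. This mature strand, of the gene Mir7j, lies at chr3:140028281-140028304 on the plus strand, where the segment log2 was 0.65 in WES-15376T, against 0.50 in WES-14837T, with 3 copies called in each. Its seed shares 6 of 7 bases with that of let-7i-5p, from chr10:122985698-122985719 on the minus strand, which stands for the other let-7 members of the table. miR-551b-3p (chr3:29416879-29416899, plus strand) marks the segment called at 4 copies in WES-15376T but at 3 in WES-14837T. miR-15b-5p (chr3:69009775-69009796) and miR-16-5p (chr3:69009918-69009939), both on the plus strand and with 1 seed, lie in a region gained in both lines, with a log2 of 0.41 and 0.38. miR-367-3p (chr3:127545779-127545800, plus strand) and miR-92b-3p (chr3:89227126-89227147, minus strand) also share a seed, but the first was gained in both lines, with a log2 of 0.49 in WES-15376T, against 0.50 in WES-14837T. The second lay in a block at 2 copies in WES-15376T, with a log2 of 0.097, against 0.62 and 3 copies in WES-14837T. miR-9-5p (chr3:88215613-88215635, plus strand) lies in the same block as miR-92b-3p. miR-9-5p and miR-16-5p also come from gene copies on other chromosomes. These are copies of DNA, and no level of any mature microRNA was measured here.

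Chromosome 3 was the most gained autosome of each line. The log2 ratio compares the coverage of a segment with a reference sample or pool, and a gain of 1 copy in every cell of a diploid line would give 0.58. On this scale 4 copies in every cell would give 1. The copy numbers named here are the deposited calls. The segments called at 4 copies had a log2 of 0.74 and 0.79, below that value, and the segment called at 5 had 1.06. The length-weighted mean log2 was 0.42 in WES-15376T, against 0.47 in WES-14837T, the highest of 19 autosomes in both. Calls above 2 copies covered 128.4 of 156.48 Mb (82.0%) in WES-15376T, against 155.0 Mb (99.0%) in WES-14837T. Chromosome 3 made up 6.56% of the autosomal length covered and held 57.8% of all autosomal length called gained in WES-15376T, against 34.3% in WES-14837T. In WES-15376T, 15 of the 24 segments were called gained, 14 of them at 3 copies and 1 at 4. In WES-14837T, 18 of the 19 segments were called gained, 16 at 3 copies, 1 at 4 and 1 at 5. Where gained, the mean log2 was 0.51 in WES-15376T, against 0.48 in WES-14837T, below the value of a full extra copy in both.

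**Figure D1:**
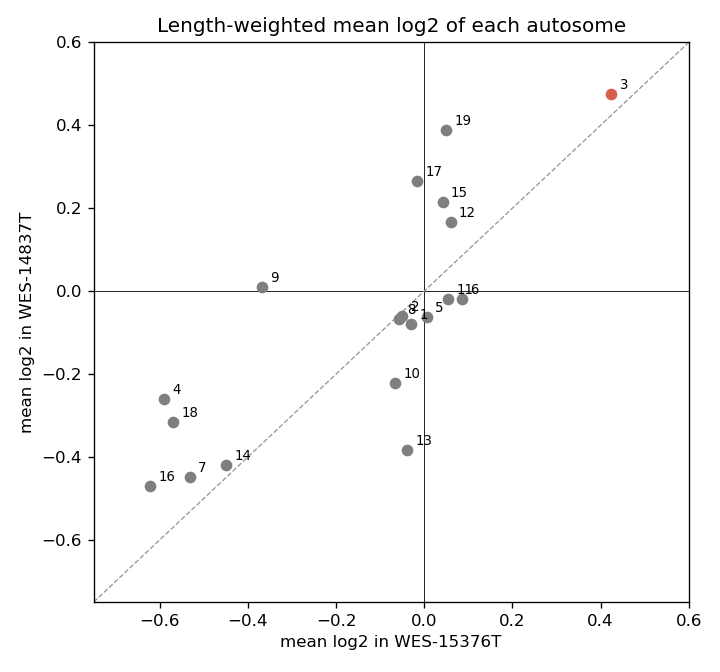
Length-weighted mean log2 of each of the 19 autosomes in WES-15376T (x axis) and WES-14837T (y axis), with the number of the chromosome beside each point and the line of equal values dashed. Chromosome 3 stands at the upper right, at 0.42 and 0.47, with no other autosome above 0.39 in either line.

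The read depth of the lines themselves, taken without the reference, was above that of 2-copy segments on chromosome 3. The log2 ratios that chose the chromosome rest on the same reads. The depths are thus a description and no separate support. The bin-weighted mean depth was 62.0 reads on chromosome 3 against 46.0 on autosomal segments at 2 copies in WES-15376T, a log2 ratio of 0.43. In WES-14837T it was 70.0 against 47.5, a log2 ratio of 0.56. The mean log2 of the deposited segments, weighted by bins in the same way, was 0.40 in WES-15376T, against 0.51 in WES-14837T.

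Of 983 protein-coding RefSeq genes on chromosome 3, 685 (69.7%) lay in segments called gained in WES-15376T, where 9.04% of all 20433 autosomal protein-coding genes did. In WES-14837T the numbers were 980 (99.7%) on chromosome 3 and 21.1% over all autosomes. In both lines at once, 683 (69.5%) were gained, against 6.73% over all autosomes. A further 297 genes were gained in WES-14837T only and 2 in WES-15376T only. Only Col11a1, which encodes a fibrillar collagen chain, was gained in neither. These counts follow from the choice of the chromosome.

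The lines were close to each other over most of the chromosome. Over the 40 pieces the mean difference, WES-15376T minus WES-14837T, was -0.050 on the log2 scale. From the own depths of the segments, weighted by bins, it was -0.13. Over the 28 pieces gained in both lines the mean difference of the deposited log2 was 0.034. Pieces with an absolute difference under 0.1 covered 59.0% of the length. WES-15376T was at least 0.1 higher over 18.4% and WES-14837T over 22.6%. The differences of single pieces ran from -0.83 to 0.49.

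**Figure D2:**
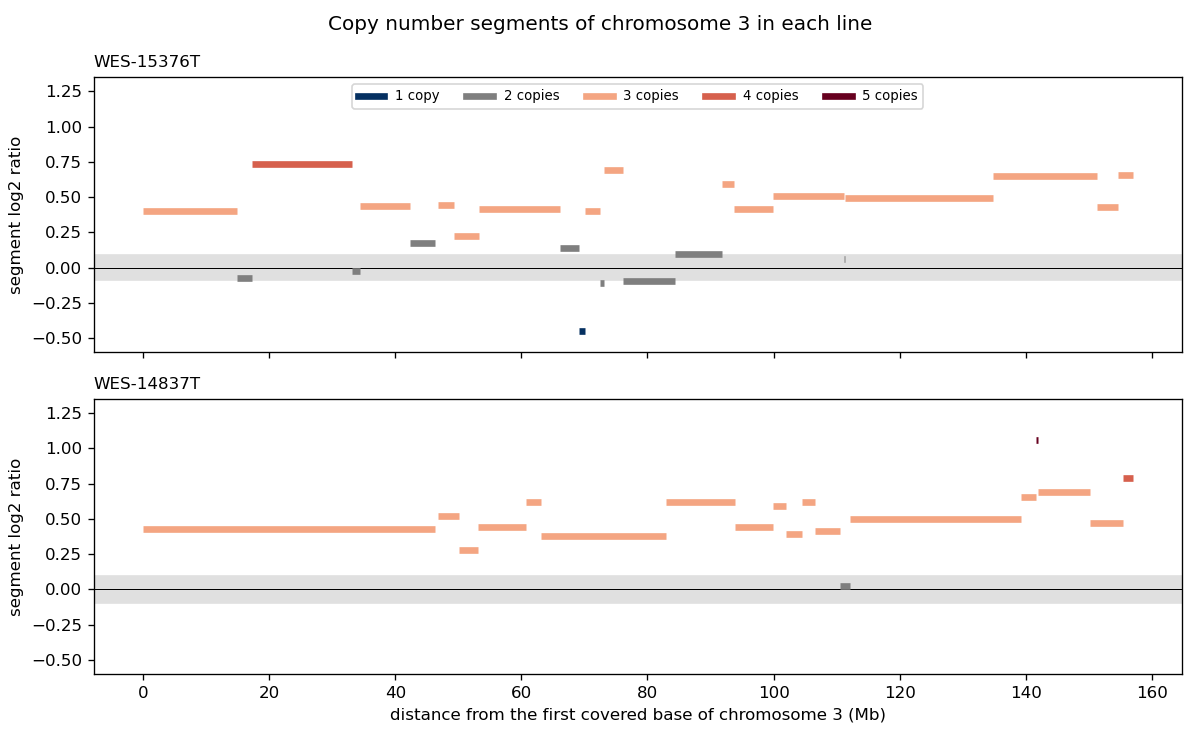
Log2 ratio of each copy number segment (y axis) by distance from the first covered base of chromosome 3 in Mb (x axis), one panel per line, coloured by the number of copies called, with the SD of autosomal segments at 2 copies as a grey band around 0. WES-14837T is raised along nearly the whole chromosome, with 1 short segment at 0.023, whereas 9 segments of WES-15376T lie between -0.45 and 0.18.

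In WES-15376T, 9 blocks were not gained, with 28.1 Mb in all, or 18.0% of the chromosome. Their length-weighted mean log2 was 0.012. Of these, 8 were called at 2 copies and 1 at 1 copy. WES-14837T was called at 3 copies over all of them except the block that begins within Col11a1. The lowest value called gained in WES-15376T was 0.22 and the highest value not called gained was 0.18, so segments close to the threshold of 0.2 stood on both sides of it.

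The largest of these blocks ran from 79169657 to 87435325 (8.27 Mb, 599 bins) and had a log2 of -0.098 in WES-15376T against 0.38 to 0.62 in WES-14837T. It holds 52 protein-coding genes. Among them are Fbxw7, the substrate-recognition subunit of a ubiquitin ligase that degrades cyclin E, Myc and Notch, Trim2, Tlr2, a receptor for bacterial lipoproteins, Pdgfc, a ligand of PDGF receptors, and Sfrp2, a secreted modulator of Wnt signalling. The fibrinogen genes Fga, Fgb and Fgg lie there too. Its own depth was 43.9 reads, a log2 ratio of -0.069 to the 2-copy depth. Its BAF, the B-allele frequency at variant sites, was 0.083.

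The next block, from 87435826 to 94773690 (7.34 Mb, 1384 bins), was the richest in genes, with 201. Its log2 was 0.097 in WES-15376T, against 0.62 in WES-14837T, a difference of -0.52. Its own depth was 49.7 reads, a log2 ratio of 0.11 to the 2-copy depth. It holds Nes, which encodes the intermediate filament nestin, Muc1, a mucin of epithelial surfaces that is often high in PDAC, the adaptor gene Shc1, Cks1b, a subunit of cyclin-dependent kinases, Il6ra, a receptor of interleukin-6, and the ephrin ligands Efna1, Efna3 and Efna4. It also holds the epidermal differentiation complex. None of 15 S100a genes, 14 Sprr genes, 21 Lce genes and 10 other genes of the complex was gained in WES-15376T, whereas all were gained in WES-14837T. S100 genes encode small calcium-binding proteins, while Sprr, Lce and filaggrin-type genes build the cornified envelope of the skin. These families fall within 1 segment in each line, so their genes are not separate observations.

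In WES-15376T, the stretch from 79169657 to 94773690 was a continuous gap in the gain between a segment at 0.69 and a segment at 0.59. The step at its far end fell within Cgn, which encodes the tight junction protein cingulin, where log2 rose by 0.50 over 498 bases between bins. WES-14837T had no border there.

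The other blocks were shorter. From 17948528 to 20252056 (158 bins) the log2 was -0.076 in WES-15376T, against 0.43 in WES-14837T, over 14 genes that include Cp, which encodes ceruloplasmin, Hltf, Cyp7b1 and the mast cell protease gene Cpa3. From 36165381 to 37464714 (217 bins) it was -0.025 against 0.43, over 16 genes that include Ccna2, the cyclin of S phase, Fgf2, and the interleukin genes Il2 and Il21. In this order their own depths were 45.9 and 56.0 reads, log2 ratios of -0.0054 and 0.28 to the 2-copy depth. The second thus lay above that depth, although its log2 was near 0. These blocks lie on either side of the highest segment of WES-15376T. The steps at its ends were 0.81, within Cpb1, and -0.76, between Zfp267 and Qrfpr.

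From 45379199 to 49318671 the log2 was 0.18 with only 38 bins, around Pcdh10. From 69089708 to 72135859 it was 0.14 with 58 bins, over 7 genes from Kpna4 to Otol1. Both values exceeded the SD of 0.090 and both were called at 2 copies. From 75392754 to 76145146 it was -0.11 with 38 bins, over Pdcd10, Serpini1 and Golim4.

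One block was called lost. From 72135860 to 73051474 (0.916 Mb, 50 bins) the log2 was -0.45 at 1 copy in WES-15376T, against 0.38 at 3 copies in WES-14837T, a difference of -0.83 and the largest of any piece. Sis, which encodes the intestinal enzyme sucrase-isomaltase, lies within it. The own depth of the block in WES-15376T was 39.2 reads, a log2 ratio of -0.23 to the depth of 46.0 for segments at 2 copies. Sis itself had 47.4 reads over 43 of the 50 bins. The depth of listed bins of a gene is not like that of whole segments, so Sis alone cannot be set against the 2-copy level. Slitrk3 was listed there with 1 bin. The border on the far side lies between Slitrk3 and Bche, where log2 rose by 0.85, the largest step on the chromosome in this line. No BAF was given for this block, and no gene there was listed in both lines.

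Both lines dipped at Col11a1. In WES-15376T a block of 0.251 Mb from 114105328 to 114356283 (51 bins) had a log2 of 0.058 between neighbours at 0.51 and 0.49. In WES-14837T the single block not gained, of 1.49 Mb from 113613717 to 115102032 (89 bins), had a log2 of 0.023 between neighbours at 0.42 and 0.50. The shorter block lies within the longer, which also holds Olfm3 and most of Rnpc3. The own depth of the segment was 67.5 reads in WES-15376T, 0.55 above the 2-copy depth on the log2 scale. In WES-14837T it was 53.8 reads, 0.18 above. The dip to 2 copies in WES-15376T was seen in the ratio to the reference. Whether its own depth dipped as well cannot be told from these values. Some segments called gained in this line, with few bins per Mb, had a depth below that of 2 copies. The block at Col11a1 had more bins per Mb than either neighbour, so these depths are not alike. What lies behind the dip was not tested.

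The absence of gain in the blocks of WES-15376T was also looked for in read depth. The depth of a block against the 2-copy depth cannot decide this, since some segments called gained had a depth as low. Genes were listed only where the absolute log2 reached about 0.4, and in WES-15376T only Sis and Slitrk3, of the block called lost, were listed inside the 9 blocks. In WES-14837T genes were listed inside 5 of the blocks, and in the other 4, where its log2 was 0.38 or 0.023, none was. For segments in which genes listed in WES-14837T covered at least 90% of the bins, a limit set after seeing the data, the depth of the segment in WES-15376T was set against the depth of these genes in WES-14837T, centred on the depth at 2 copies. This log2 ratio was -0.71, -0.58 and -0.68 in the 3 blocks not gained that could be measured, from 17948528, 36165381 and 87435826. In the 4 gained segments that could be measured it ran from -0.25 to -0.0067. The groups did not overlap at this limit, but the blocks were called on coverage of these same libraries, so this is a description. The ratio also sets a whole segment against listed genes. It was -0.25 in the segment from 114356284, where the segment log2 differed by only 0.0053. With segments of at least 50% of bins covered, the 12 gained segments ran from -0.68 to -0.0067 and the groups overlapped. The lowest of them, from 3000501, had 246 of 332 bins covered.

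The highest segment of WES-15376T ran from 20262361 to 36164880 (15.9 Mb, 757 bins) with a log2 of 0.74 at 4 copies, against 0.43 at 3 copies in WES-14837T. It holds Pik3ca, the catalytic subunit of PI3 kinase, Prkci, an atypical protein kinase C, Ect2, a guanine nucleotide exchange factor of cytokinesis, Mecom, Skil, Tbl1xr1, Actl6a, Dcun1d1 and the transcription factor gene Sox2. Many of these genes lie together on human chromosome arm 3q. The depth of Pik3ca over 18 bins was 112 reads in WES-15376T, against 97.4 in WES-14837T. That of Ect2 over 25 bins was 112 and 95.4. That of Tbl1xr1 over 16 bins was 115 and 96.3. In each of these genes the depth was higher in WES-15376T, although the depth at 2 copies was lower there.

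The own depth ratio gives this without the reference. It is the log2 of the depth of a gene in WES-15376T over that in WES-14837T, minus the same ratio for autosomal segments at 2 copies, and is free of features of a gene that act on both libraries alike. In the 4-copy segment all 46 genes with at least 5 bins had a ratio above 0, with a median of 0.26 and an SD of 0.084 over genes. Over the whole chromosome, with this segment, 172 of 438 such genes had a ratio above 0. The segment was called on coverage of these same libraries, so the sign was partly fixed in advance. Genes of 1 segment are not separate observations. The segment log2 differed by 0.31. The ratio was 0.25 for Pik3ca, 0.28 for Ect2, 0.30 for Tbl1xr1, 0.24 for Mecom, 0.26 for Skil, 0.18 for Prkci, 0.35 for Actl6a and 0.28 for Dcun1d1. The 5 highest ratios on the chromosome among genes with at least 5 bins, of Gnb4 (0.45), Pld1 (0.41), Usp13 (0.37), Ndufb5 (0.37) and Mfn1 (0.36), all came from this segment. Usp13, Ndufb5, Mfn1 and Gnb4 lie within 0.5 Mb of Pik3ca. The lowest of the segment was that of Sec62, at 0.047.

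Most ratios on the rest of the chromosome were smaller. Of 651 genes listed in both lines, 635 had the same positions and number of bins, and 438 of them had at least 5 bins. Over these 438 genes the median own depth ratio was -0.037, with an SD of 0.14, where the 1547 genes of the other autosomes gave -0.16 and 0.17. The segment log2 of these genes already differed, by a median of -0.028 on chromosome 3 and -0.12 on the other autosomes. With this difference taken off each gene, the medians were -0.015 and -0.051. The 392 genes of chromosome 3 outside the 4-copy segment had a median of -0.058 and an SD of 0.12, and 6 of these exceeded the median of that segment, up to 0.35 for Metap1. On pieces whose segment log2 differed by under 0.1, 283 of 305 genes had a ratio between -0.2 and 0.2. The 5 lowest were Vps72 (-0.38), Reg4 (-0.32), Ythdf3 (-0.28), Nudt17 (-0.26) and Maml3 (-0.26). Vps72, Nudt17 and Reg4 lie in neighbouring pieces, between 95111036 and 98236390, and Ythdf3 and Maml3 lie elsewhere.

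**Figure D3:**
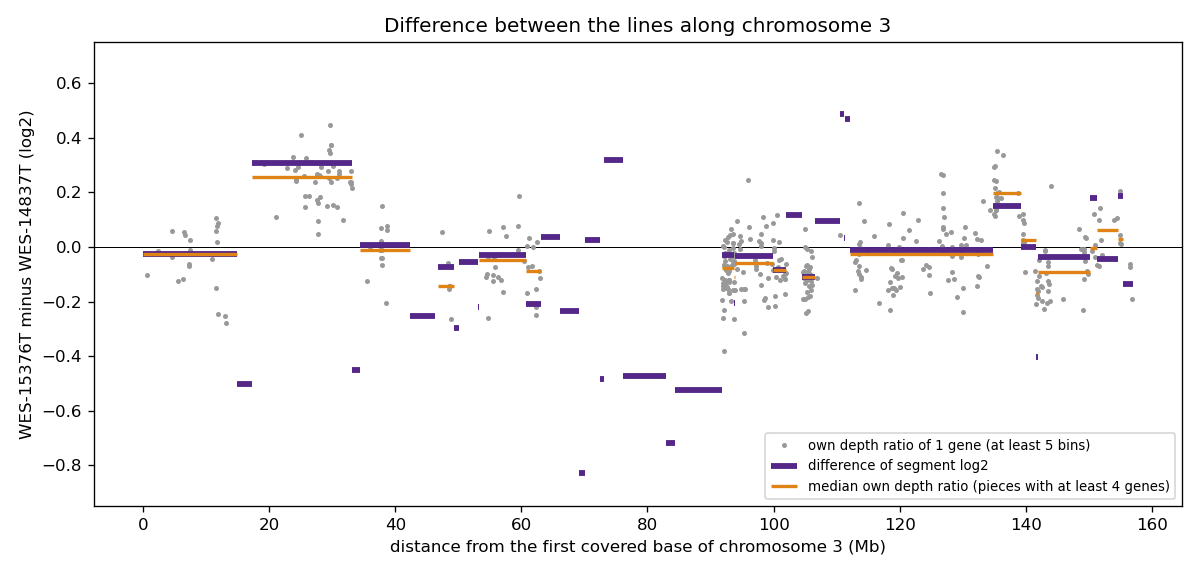
Difference between WES-15376T and WES-14837T on the log2 scale (y axis) by distance from the first covered base of chromosome 3 in Mb (x axis), as the difference of segment log2 in each of 40 pieces, the own depth ratio of 438 genes with at least 5 bins and its median in the 19 pieces with at least 4 such genes. All 46 genes of the 4-copy segment of WES-15376T lie above 0, where 172 of the 438 genes of the chromosome do. No genes were listed in both lines where the difference is below -0.41.

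Piece by piece, the median own depth ratio was within 0.1 of the difference of segment log2 in 14 of the 19 pieces with at least 4 genes. Across these 19 pieces the values had a Pearson r of 0.81, given as a description, since all pieces share the same pair of libraries. Segment levels and borders were also drawn from the coverage of these libraries. Likeness of the measures, here and at the borders, is thus partly fixed in advance and is no separate support. At 11 borders both neighbouring pieces had at least 4 genes, and the ratio stepped in the same direction as the segment difference at 9 of them. The 2 exceptions lie at 154258557 and 157641826, where WES-15376T changed by -0.23 and 0.23. There the ratio changed by 0.066 and -0.032, with 4 to 8 genes on either side.

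The clearest of these steps fell at H2az1, which encodes the histone variant H2A.Z. At 137866194, within the gene, log2 rose by 0.16 in WES-15376T, from 0.49 to 0.65, and WES-14837T had no border. The median own depth ratio was -0.026 over 88 genes before it and 0.20 over 19 genes after it. At 142259330, within Pdlim5, WES-14837T rose in its turn by 0.15, and the ratio fell to 0.025 over 9 genes. The interval between these borders holds Adh1, Adh4, Adh5, Adh6a, Adh6b and Adh7, which encode alcohol dehydrogenases, and Eif4e, the cap-binding translation factor. All 22 genes of the interval listed in both lines with equal bins had a ratio above 0, with a median of 0.19. The 6 Adh genes, with a median of 0.19, and Eif4e, with 0.18, were near the level of the interval. Mir7j, the gene of let-7j, lies in the same interval but was not listed in either line.

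The highest segment of WES-14837T was short. It ran from 144578289 to 145009918 (0.432 Mb, 86 bins) with a log2 of 1.06 at 5 copies, against 0.65 in WES-15376T. It holds part of Selenof, Sh3glb1, and Clca genes, which encode secreted regulators of chloride channels in epithelia. The depth of Clca3a1 was 194 reads in WES-14837T and 172 in WES-15376T, that of Clca3b was 158 and 136, and that of Clca4a was 186 and 159. Sh3glb1 had 132 and 111 reads. All of these genes were deeper in WES-14837T, but the depth was high in both lines.

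Against genes within 7 Mb, the genes listed inside this segment stood 0.93 higher in WES-14837T and 0.78 higher in WES-15376T on the log2 scale of depth, although WES-15376T had no border there. The own depth ratio of the 6 genes with at least 5 bins ran from -0.21 to -0.13, with a median of -0.17, where the segment log2 differed by -0.40. This was the largest gap between the measures in any piece with at least 4 genes, at 0.24. The 30 genes of the following 8.19 Mb had a median of -0.092, with an SD of 0.10. The border cuts Selenof in WES-14837T, whose 3 bins inside the segment had 145 reads and whose 2 bins outside had 67.7. In WES-15376T, its 6 bins together had 68.8 reads. At the far border in Clca1, the depth in WES-14837T was 117 reads over 5 bins inside and 104 over 8 bins outside.

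**Figure D4:**
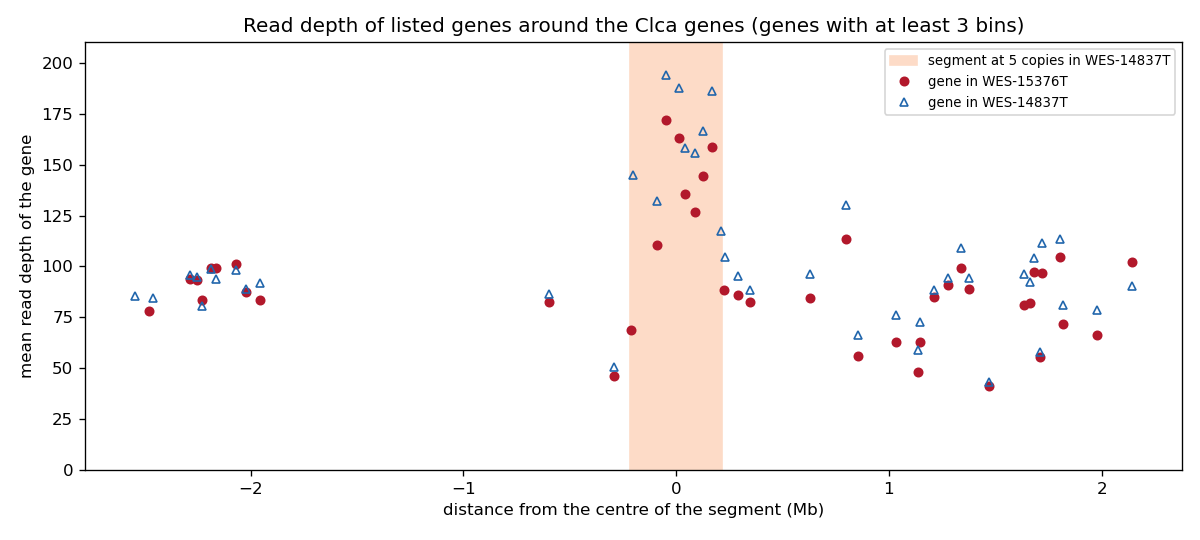
Mean read depth of listed genes with at least 3 bins (y axis) by distance from the centre of the Clca segment in Mb (x axis), for WES-15376T (filled circles) and WES-14837T (open triangles), with the segment called at 5 copies in WES-14837T shaded. The Clca genes inside the segment stand above nearly all neighbours in both lines, at 127 to 172 reads in WES-15376T, against 156 to 194 in WES-14837T, apart from Clca1 at its edge.

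In WES-15376T the next segment by log2, from 76145647 to 79169156, had a log2 of 0.69, but only 70 bins and an own depth of 40.1 reads, below the 2-copy depth of 46.0. It had 23.2 bins per Mb. The first segment of the chromosome, with 22.2 bins per Mb and called gained at 0.40, had 44.6 reads. Both were called gained at a depth under 46.0, so depth against the 2-copy level alone cannot decide whether a gain is present. Only Fstl5 and Rapgef2 were listed in the segment from 76145647, and they stood 0.027 above 5 neighbours in depth. The last segment, from 157643825 to 159934364 (143 bins), had a log2 of 0.66 in WES-15376T. In WES-14837T, the part of it from 158353979 on had a log2 of 0.79 at 4 copies, with 50 bins. It holds Depdc1a, Rpe65, the isomerase of the visual cycle, and Wls, which encodes the sorting receptor that Wnt ligands need to be secreted. The own depth ratio of these 3 genes ran from -0.19 to -0.061, with a segment difference of -0.13.

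In WES-14837T the segment from 145011702 to 153204877 had a log2 of 0.69. WES-15376T was at 0.65 there, and the own depth ratio of 30 genes had a median of -0.092. Both lines were thus at a high level over the 8.19 Mb that hold Bcl10, Ccn1, Prkacb, Adgrl2 and Fubp1.

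Borders of the lines rarely coincided. WES-15376T had 23 borders, of which 10 split a gene, and WES-14837T had 18, of which 12 split a gene. In each line 5 borders lay within 500 kb of a border of the other. Exactly 2 were shared, a gap without bins from 49318671 to 49744580, before Pcdh18, and a border within Sycp1, which encodes a protein of the synaptonemal complex, at 102922513. At the Sycp1 border the steps were 0.096 in WES-15376T, against 0.15 in WES-14837T. Near Mab21l1 and Tm4sf1 the borders were 141 kb apart. They end the segment with the lowest log2 called gained in each line, at 0.22 in WES-15376T, against 0.28 in WES-14837T, which holds Ccna1, Smad9 and Dclk1, a marker of tuft cells. Whether the same reference was used for both lines is not given in the sources used here.

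Groups of genes by function followed the blocks, and their counts are to be read against 69.5% of all protein-coding genes of the chromosome gained in both lines and 30.2% in WES-14837T only. Of 17 oncogenes and growth genes on the list, 15 were gained in both lines and 2, Shc1 and Crtc2, in WES-14837T only. Their median log2 was 0.59 in WES-15376T, against 0.45 in WES-14837T, where all protein-coding genes of the chromosome had 0.41 and 0.50. Of the 17 genes, 7 lie in the 4-copy segment of WES-15376T and are not separate observations. Nras, a RAS GTPase, had a log2 of 0.51 and 0.60, with depths of 103 and 108 reads and an own depth ratio of -0.020. Notch2, a receptor of cell fate, had 0.41 and 0.45 with a ratio of -0.090 over 35 bins. Mcl1, which blocks apoptosis, had 0.59 and 0.62 with a ratio of -0.14 over 4 bins, and its neighbours Setdb1 and Arnt had ratios of -0.031 and -0.13.

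Of 10 tumor suppressor genes on the list, 8 were gained in both lines, and Fbxw7 and Trim2 in WES-14837T only, near the share of the chromosome. Tet2, a demethylase of DNA, had a log2 of 0.49 and 0.50 and a ratio of 0.0080. Trim33 had 0.51 and 0.60 and a ratio of -0.11. Of 14 genes tied to pancreas and PDAC, 11 were gained in both lines, and Cp, Nes and Muc1 in WES-14837T only. The 7 amylase genes on this list, the Amy genes for the pancreatic and salivary enzyme, lay in 1 segment of each line, at 0.51 and 0.42. A depth was listed in both lines only for Amy2a5 and Amy1, and the others are near-identical copies.

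On the list named secreted ligands, 8 of 14 genes were gained in WES-14837T only, where 30.2% of all genes of the chromosome were. The list is wider than its name, since it also holds ephrin genes and the Wnt modulator genes Sfrp2 and Dkk2. The count thus describes this list and not secreted ligands alone. These 8 come from 3 blocks, so they are not separate observations. They were Il2, Il21, Fgf2, Pdgfc, Sfrp2, Efna1, Efna3 and Efna4, and the other 6, among them Egf, Csf1 and Wnt2b, were gained in both. Of 11 receptors, 9 were gained in both lines, and Tlr2 and Il6ra in WES-14837T only. Of 6 Wnt pathway genes, 5 were gained in both, and Sfrp2 in WES-14837T only. Lef1, the nuclear partner of β-catenin, had 0.49 and 0.50 and a ratio of 0.056. The Wnt antagonist gene Dkk2 lay in the same segments and had a ratio of -0.18 over 5 bins.

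Of 11 cell division genes, 8 were gained in both lines, which is near the 69.5% of the chromosome. Ccna2, Cks1b and Iqgap3 were gained in WES-14837T only. Plk4, the kinase of centriole duplication, had 0.43 and 0.43, with depths of 100.3 and 98.7 reads. Cenpe, a kinesin of the kinetochore, had 0.49 and 0.50 and a ratio of 0.029 over 43 bins.

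Several gene families lay together in gained segments. All 5 Gbp genes, which encode interferon-induced GTPases, had a log2 of 0.65 in both lines and ratios with a median of 0.047. All 7 Gstm genes, for glutathione transferases, had 0.51 and 0.62, and their ratios had a median of -0.00056. The 10 replication-dependent histone genes had 0.59 and 0.62. The families hold similar copies, and reads that fit several copies may be placed on any of them.

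**Figure D5:**
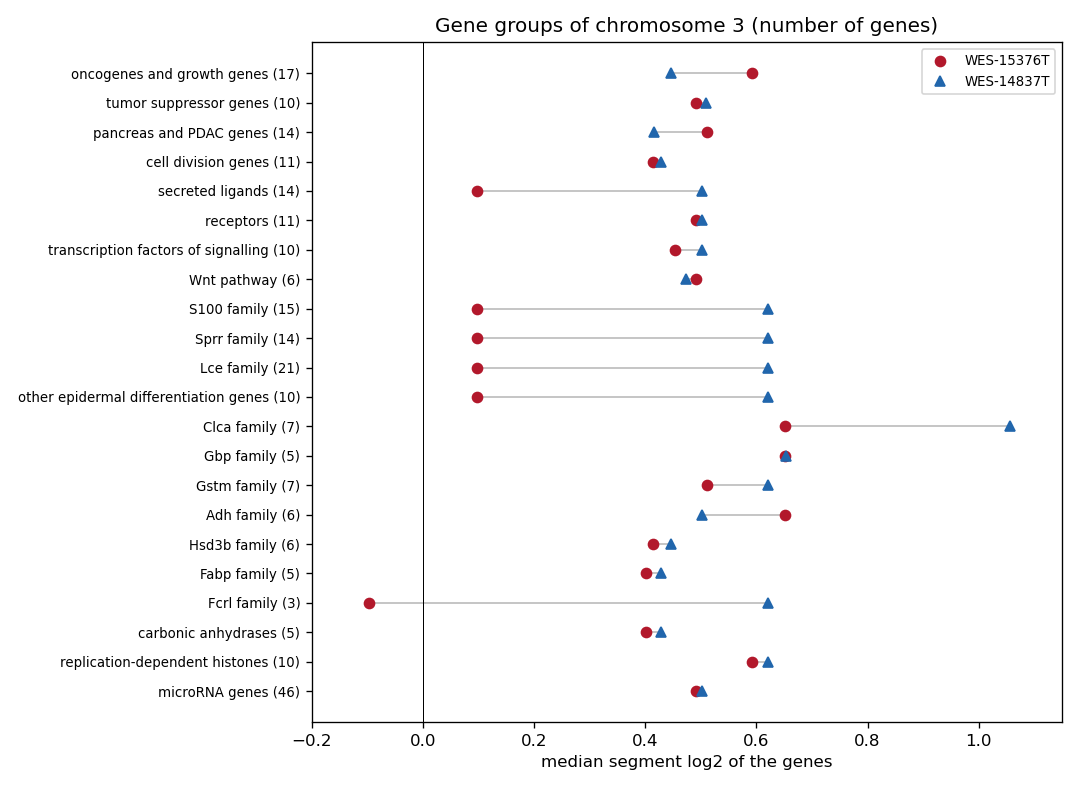
Median segment log2 of the genes of each group (x axis) in WES-15376T (circles) and WES-14837T (triangles), with the number of genes in brackets, where the microRNA group takes the 46 genes whose symbols begin with Mir. S100, Sprr, Lce and Fcrl genes lie at 0.097 or below in WES-15376T but at 0.62 in WES-14837T, and the Clca genes stand highest in WES-14837T, at 1.06.

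BAF values were low on chromosome 3, with an unweighted median over segments of 0.069 in WES-15376T, against 0.046 in WES-14837T. The autosomal medians were 0.077 and 0.061, but these were weighted by length and so are not measured alike. On chromosome 3 the BAF was blank for 9 of 24 and 3 of 19 segments. The highest was 0.77, in the first segment of WES-15376T from 3000501 to 17948027, where WES-14837T had 0.030 in a longer segment from the same start. The number of variant sites behind a BAF was not analysed here, and nothing is read from the values about the parental copies.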

How the data were processed

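WES was analysed for the tumor libraries of lines 15376T and 14837T. The authors deposited, for each, a segment table and a gene table. Per the file headers, these hold a log2 ratio, an integer copy number, a read depth (signal, the mean coverage), counts of bins, a score of weight and, for segments, a BAF (fraction). The submitters' processing notes name build mm10. The aligner, the segmentation tool and the reference are not given in the sources used here. Deposited integer copy numbers above 2 were exactly the autosomal segments with a log2 over 0.2.

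Segments of the lines were intersected, and means were weighted by length. Starts are given counted from 1. The own depth ratio used genes listed in both libraries with equal positions and bins, centred on the ratio of bin-weighted depth of autosomal segments at 2 copies (-0.046). RefSeq genes (GRCm38.p6) were placed in the segment that overlapped them most, and 99.7% of listed names overlapped their RefSeq position in each line. Genes named are those of lists by function and family, of the 3 highest segments of each line, of blocks not gained in WES-15376T (up to 8 a block), the 5 highest and lowest own depth ratios (at least 5 bins), and genes at borders. The further named genes Fga, Fgb, Fgg, Sec62 and those of the last segments were picked with their values in view. The members and lists were chosen with earlier results of these data known. Lists were corrected once after values were seen (an H2A.Z gene, a host gene and 1 other left out, 2 S100 genes added). Some genes and a part of the genotype are not reported here. No test was run, since each line had 1 library. Depth was 43.4 and 47.5 reads per bin over the autosomes, and the number of bins limits the precision of each segment. Calculations used Python 3.11.15, numpy 2.4.6 and pandas 2.3.3, and were tested on simulated data. Alternatives changed the call threshold, centring, weights, minimum bins and measure.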

Additional observations from a re-analysis of the deposited data

How the results depend on the processing

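Of 31 alternative values for 13 results, 23 kept within 1.5 times the main value (shares and lengths) or within 1 SD of it, and none changed sign. Counting gains only from a log2 of 0.5 lowered the share of the chromosome gained to 32.4% in WES-15376T, against 38.6% in WES-14837T, since by construction every gained segment under 0.5 is then left out. From a log2 of 0.3 the shares were 79.4% and 97.0%. Centred on the autosomal median, which was -0.040 and -0.049, they were 84.6% and 99.0%, and weighted by bins 74.8% and 99.1%. Without segments under 5 Mb, chosen after seeing the data, the share in WES-15376T was 87.5%. The difference between the lines in mean log2 was -0.059 after centring and -0.13 from own segment depths weighted by bins, against -0.050. Own depth of the genes against neighbours within 7 Mb, in place of the segment log2, measures a rise above neighbours that are gained too. It gave 0.22, 0.027 and 0.093 for the 3 highest segments of WES-15376T, and 0.93, 0.24 and 0.087 for those of WES-14837T. No paired analysis was possible because the lines had 1 library apiece and no result came from a test. In 6 of the 9 blocks not gained in WES-15376T, genes listed in WES-14837T covered under 50% of the bins or none, so no depth ratio between the lines is given for them.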
